A study of Macaca mulatta with 2 samples.

Results

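Müller glia are the radial glia of the retina, and they span it from the vitreous side to the bases of the photoreceptors, with cell bodies in the inner nuclear layer. They take up glutamate released by retinal neurons through GLAST, encoded by SLC1A3, and glutamine synthetase, encoded by GLUL, turns it into glutamine that is returned to the neurons. GFAP, an intermediate filament protein, is known from astrocytes of the nerve fibre layer at rest and from Müller glia in gliosis, the reactive state of these cells. The RNA of these 3 genes, chosen by symbol among the 26533 features counted, was described across the layers of 2 uninjected macaque retinas.

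The sections came from Macaca mulatta, 1 from NHP1, a male of 5 years, and 1 from NHP2, a male of 6 years, and each was taken outside the injected areas of the right eye. NHP1 had received AAV2-CAG-hRPE65 under the retina of both eyes, and NHP2 had received AAV8-GRK1-hRPGR and AAV8-GRK1-mScarlet in separate blebs, so both sections belong to eyes that underwent vitrectomy, subretinal injection and a periocular dose of triamcinolone, and neither is from an untouched animal. Punches of 4 mm through retina, choroid and sclera were cut at 10 μm and laid on Visium slides, where poly-A RNA is captured in spots and each captured molecule carries a unique molecular identifier (UMI). The labels call the material fresh frozen in one field and fixed beforehand in paraformaldehyde in another. With 1 section per animal, there is no replicate of any value, no test was made, and all intervals are exact 95% intervals for counting error alone.

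The tissue of NHP1 covered 534 spots and gave 1484784 UMIs (median 1473.5 per spot), and that of NHP2 covered 470 and gave 805726 (median 370.5). Since a spot collects RNA from several neighbouring cells, each was assigned to a layer by the marker list with the highest score among photoreceptor, inner nuclear, ganglion cell, RPE (retinal pigment epithelium), choroid and sclera lists, none of which holds GLUL, SLC1A3 or GFAP. This placed 411 spots of NHP1 and 273 of NHP2. The inner nuclear class had 37 and 12 spots, the ganglion cell class 52 and 11, and the photoreceptor class 100 and 25. The RPE, choroid and sclera classes had 67, 22 and 133 spots in NHP1 and 34, 21 and 170 in NHP2. Classes were mixed. In inner nuclear spots the photoreceptor list still stood at 83.9 UMIs per 10000 in NHP1 and 83.1 in NHP2, against 356 and 338 in photoreceptor spots. In NHP2, 133 tissue spots held fewer than 100 UMIs and were not assigned, and its layers rest on few spots. All levels below are UMIs of the gene per 10000 UMIs of all genes, summed over the spots of a class, and in bulk spots fewer cells of a type and less RNA per cell cannot be told apart.

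GLUL and SLC1A3 were both highest in inner nuclear spots, next highest in ganglion cell spots, and lower in photoreceptor spots, in both sections. The difference between the inner retina (inner nuclear and ganglion cell spots together) and photoreceptor spots was 2.28-fold to 3.71-fold for the 2 genes. GFAP was close to the limit of detection, with 46 UMIs over the tissue of NHP1 and 12 over that of NHP2. The genes differed in the outer coats of the eye, that is RPE, choroid and sclera spots. Photoreceptor spots had 0.582 (0.496 to 0.682) of the GLUL level of the outer coats in NHP1 and 0.993 (0.797 to 1.23) in NHP2. For SLC1A3 the ratio was 1.67 (1.08 to 2.62) and 1.64 (0.814 to 3.36), so the intervals of the 2 genes overlapped in NHP2. In sclera spots alone SLC1A3 did not differ from photoreceptor spots beyond counting error, at 0.760 (0.410 to 1.33) and 0.872 (0.418 to 1.77).

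**Figure D1:**
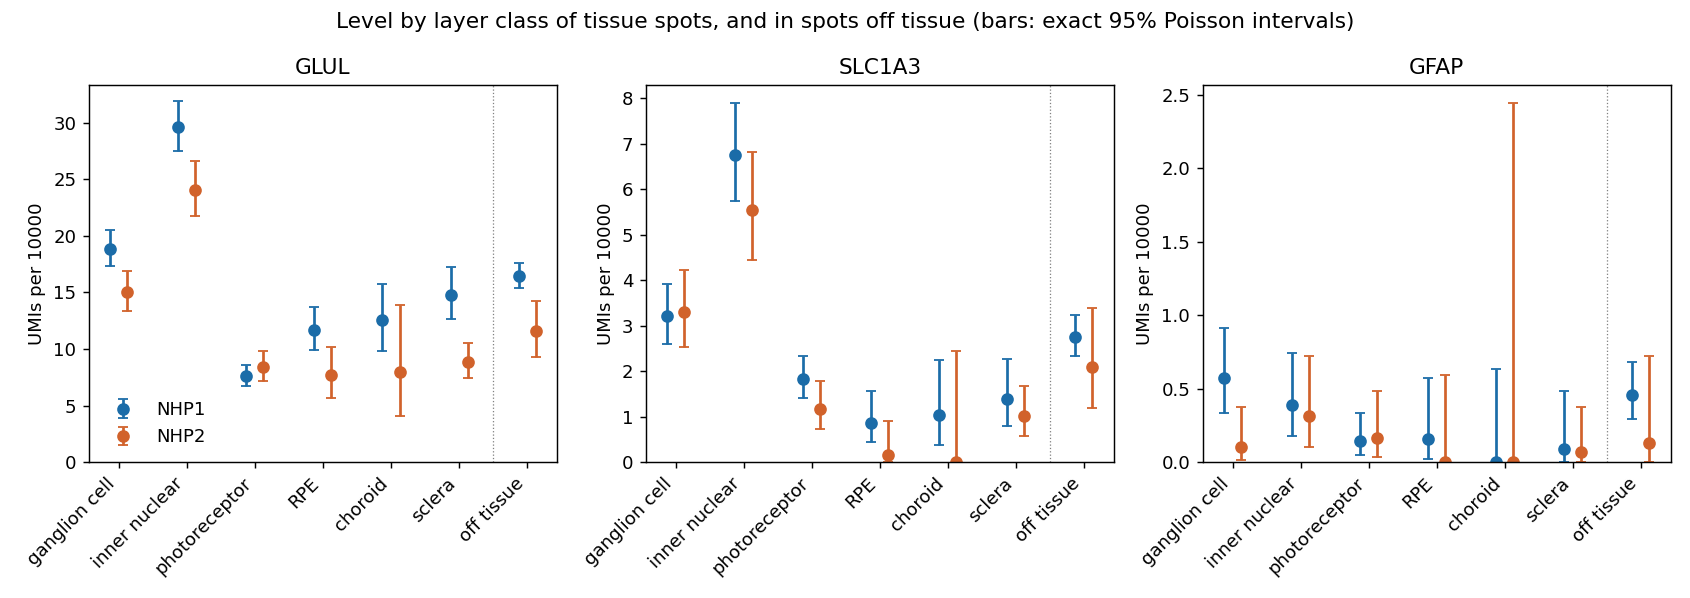
UMIs per 10000 (linear axes, a separate scale for each gene) of GLUL, SLC1A3 and GFAP in the 6 layer classes of tissue spots and in spots off tissue, for NHP1 (blue) and NHP2 (orange). Points are summed levels and bars exact 95% Poisson intervals, and GLUL and SLC1A3 have their highest point in inner nuclear spots, at 29.6 and 6.75 in NHP1.

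GLUL, the enzyme that makes glutamine from glutamate and ammonia, had 2565 UMIs over the tissue of NHP1 and 1079 over that of NHP2. It lies on chromosome 1 of Mmul_10, at chr1:39623412-39629245 on the minus strand, with 1 annotated transcript of 6 exons, and its identifier is ENSMMUG00000022884. In NHP1 the level was 29.6 (27.5 to 31.9, 685 UMIs) in inner nuclear spots, 18.8 (17.3 to 20.5) in ganglion cell spots, 14.8 (12.7 to 17.2) in sclera spots, 12.5 (9.83 to 15.8) in choroid spots, 11.7 (9.87 to 13.7) in RPE spots and 7.59 (6.71 to 8.56, 265 UMIs) in photoreceptor spots. In NHP2 it was 24.0 (21.7 to 26.6, 387 UMIs) in inner nuclear spots, 15.04 (13.4 to 16.9) in ganglion cell spots, 8.85 (7.40 to 10.5) in sclera spots, 8.41 (7.12 to 9.85, 152 UMIs) in photoreceptor spots, 7.95 (4.11 to 13.9) in choroid spots and 7.69 (5.67 to 10.2) in RPE spots. The first 2 places in this order were the same in both sections, and their intervals did not overlap. Further down, the ratio of sclera to choroid spots in NHP1 was 1.18 (0.892 to 1.57) and that of choroid to RPE spots 1.07 (0.800 to 1.43), so these neighbours did not differ beyond counting error. In NHP2 no neighbours from sclera spots downwards did, with ratios between 1.03 and 1.06. Photoreceptor spots were last in NHP1, and RPE spots there stood 1.54-fold (1.249 to 1.89) above them.

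Inner retina spots had 3.10-fold (2.71 to 3.55) the GLUL level of photoreceptor spots in NHP1, 23.5 against 7.59, and 2.28-fold (1.91 to 2.74) in NHP2, 19.2 against 8.41. Among the 3517 genes of NHP1 with at least 50 UMIs in these spots, 11.6% were at least 2-fold higher in the inner retina, and GLUL stood at the 94.5th percentile of the ratio. In NHP2 the share was 11.3% of 2286 genes, and GLUL stood at the 90.6th percentile. Both sections counted together, 8.17% of the 2240 genes measured in each were at least 2-fold higher in the inner retina in both, GLUL and SLC1A3 among them. In NHP2, 2 of the photoreceptor spots scored almost as high on another list, and without all spots near such a tie the GLUL ratio was 2.83 (2.31 to 3.50). With a minimum score of 2.5 for a layer call it was 5.54 (3.63 to 8.83) in NHP1 and 3.83 (2.77 to 5.37) in NHP2. At that score the makeup of the inner retina changed. In NHP2, 145 of its 150 GLUL UMIs came from ganglion cell spots. In NHP1 either the inner nuclear or the ganglion cell class held none.

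GLUL was lower in ganglion cell than in inner nuclear spots by a similar factor in the 2 sections, with ratios of 0.636 (0.568 to 0.712) and 0.626 (0.535 to 0.731). Of all genes with at least 50 UMIs in these spots, 5.4% in NHP1 and 8.03% in NHP2 were at least 2-fold lower in ganglion cell spots, and GLUL is not one of them. The separation of these layers depends on the marker lists. When the regions were instead found by clustering without the 3 genes and the glial lists, the ratio in NHP1 was 1.17 (1.05 to 1.30), and the clusters of NHP2 did not part the layers. With a minimum score of 2.5 the ratio in NHP2 was 1.12 (0.471 to 3.51), from only 5 GLUL UMIs in inner nuclear spots.

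The spread of GLUL over single spots was wide. Among spots with at least 500 UMIs, inner nuclear spots of NHP1 ran from 11.6 through a median of 28.5 to 59.3, and those of NHP2 from 9.09 through 21.1 to 30.6. Photoreceptor spots ran from 0 through a median of 6.04 to 61.6 in NHP1, and from 0 through 3.62 to 27.7 in NHP2. Every inner nuclear spot of either section held a GLUL UMI, 37 of 37 and 12 of 12. Of photoreceptor spots, 67 of 100 and 15 of 25 did. Inner nuclear spots were deeper, with medians of 5269 and 9529 UMIs against 2553.5 and 6241. Spots were also thinned to 300 UMIs to level the depth, leaving out the shallower ones. The share in NHP1 was then 59.5% (42.1 to 75.2) of inner nuclear against 20% (12.7 to 29.2) of photoreceptor spots. In NHP2 it was 41.7% (15.2 to 72.3) against 17.4% (4.95 to 38.8), and these intervals overlap. The ranges of single-spot levels overlapped. The index of dispersion is 1 for counting error alone. It was 1.68 and 2.23 in inner nuclear spots and 2.04 and 7.21 in photoreceptor spots. The index of dispersion ran down to 0.938 in NHP1, in sclera spots, and to 0.909 in NHP2, in ganglion cell spots.

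**Figure D2:**
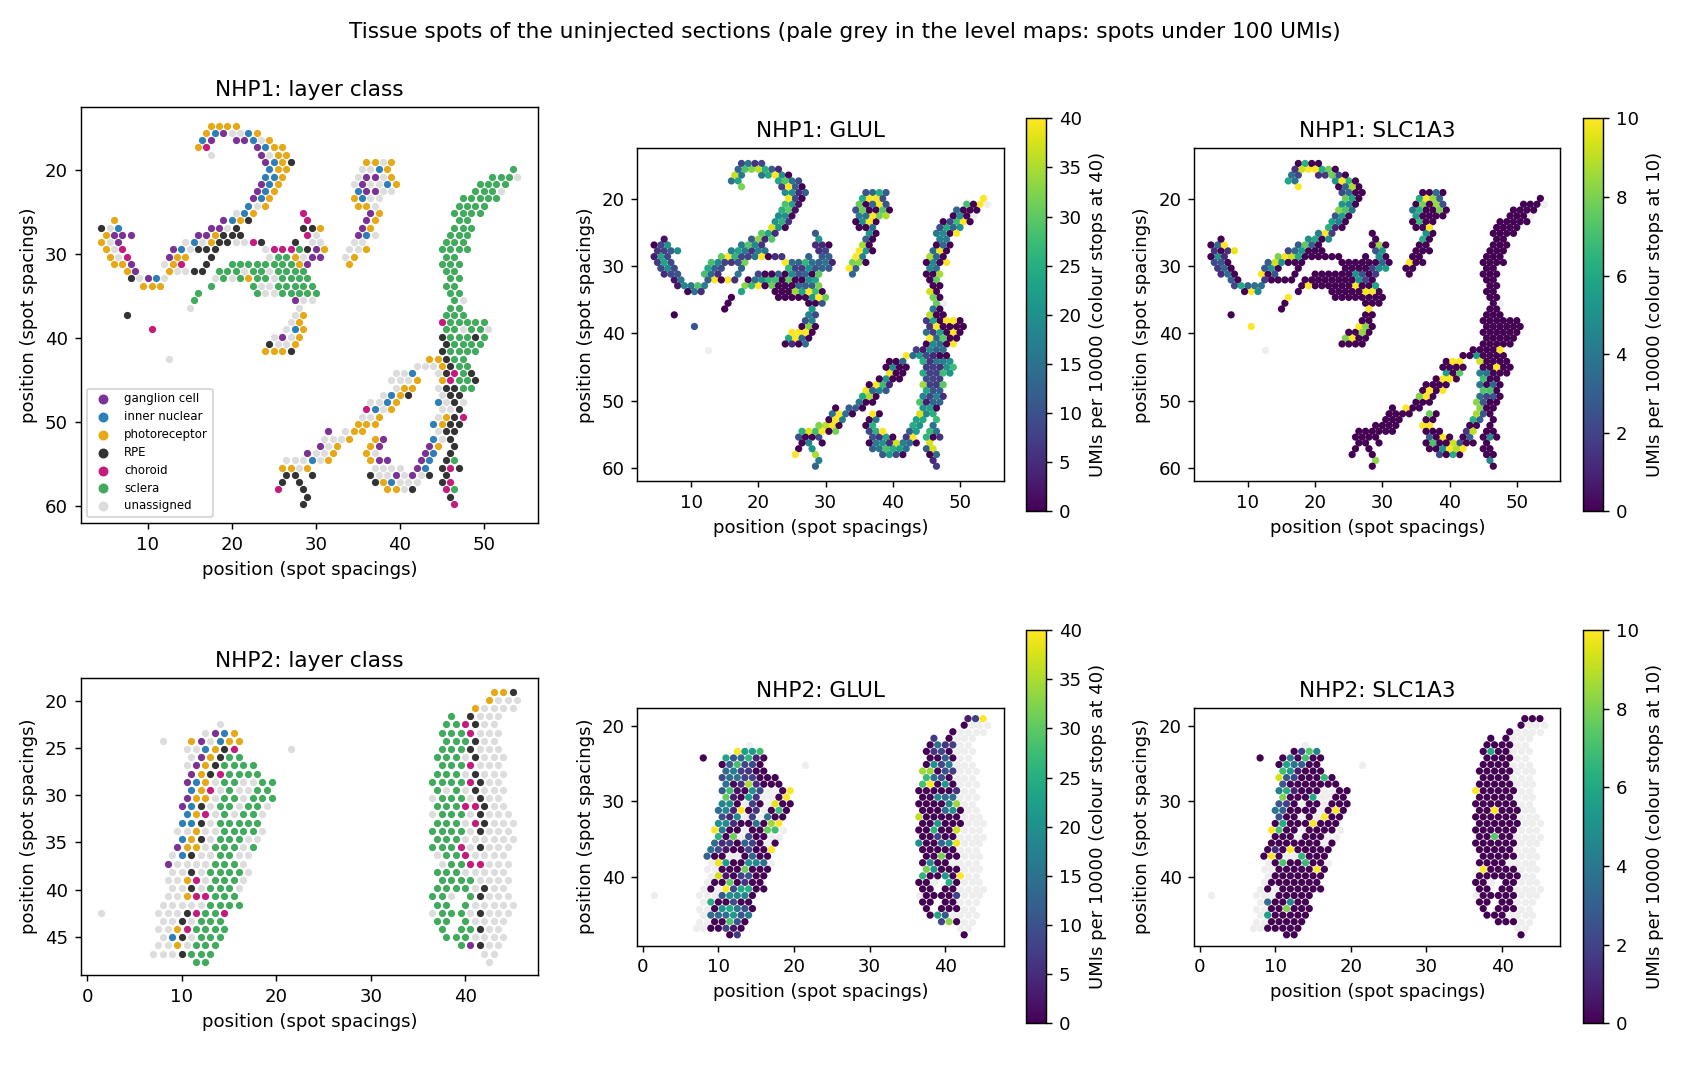
Tissue spots of NHP1 (upper row) and NHP2 (lower row) on the slide grid, with both axes in spot spacings. The left panels colour the layer class, and the other panels the GLUL and SLC1A3 UMIs per 10000 of each spot with at least 100 UMIs, with the colour scale stopping at 40 and 10. Raised values lie along the bands of inner nuclear and ganglion cell spots, and GLUL, but rarely SLC1A3, is also seen in sclera spots.

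The section of NHP1 lay in separate pieces, which can be read side by side although they come from 1 animal and 1 library. In the 3 pieces with at least 40 spots (255, 228 and 48 spots), the GLUL ratio of inner retina to photoreceptor spots was 2.69, 3.22 and 3.61, and its level in inner nuclear spots was 32.5, 28.6 and 35.3. SLC1A3 gave ratios of 2.61, 2.44 and 5.57, the last from only 12 and 2 UMIs. All 3 pieces had the same direction for both genes. In NHP2, all 12 inner nuclear spots, 10 of 11 ganglion cell spots and 21 of 25 photoreceptor spots lay in 1 piece of 231 spots, where the GLUL ratio was 2.23 and the SLC1A3 ratio 3.56.

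SLC1A3, the glutamate transporter, was less abundant, with 497 UMIs over the tissue of NHP1 and 205 over that of NHP2. It lies at chr6:36421009-36505464 of Mmul_10 on the plus strand, with 2 annotated transcripts of 9 and 10 exons, and its identifier is ENSMMUG00000006202. In NHP1 the level was 6.75 (5.73 to 7.89) in inner nuclear spots, 3.21 (2.60 to 3.92) in ganglion cell spots, 1.83 (1.41 to 2.34) in photoreceptor spots, 1.39 (0.796 to 2.26) in sclera spots, 1.03 (0.378 to 2.24) in choroid spots and 0.868 (0.433 to 1.55) in RPE spots. In NHP2 it was 5.53 (4.44 to 6.80) in inner nuclear spots, 3.29 (2.53 to 4.21) in ganglion cell spots, 1.16 (0.719 to 1.77) in photoreceptor spots, 1.01 (0.567 to 1.67) in sclera spots and 0.160 in RPE spots, from 1 UMI. The choroid spots of NHP2 held 0 SLC1A3 UMIs, which allows up to 1.99 per 10000 at their depth. The first 3 places were the same in both sections, and each of these steps was larger than counting error, from inner nuclear to ganglion cell spots 2.1003-fold (1.62 to 2.74) and 1.68-fold (1.20 to 2.36), and from ganglion cell to photoreceptor spots 1.75-fold (1.26 to 2.44) and 2.83-fold (1.71 to 4.89). Among photoreceptor, sclera, choroid and RPE spots, no neighbours in the order differed beyond counting error in either section. Over more than 1 step they did, as RPE spots stood below photoreceptor spots in both. The ratio was 0.473 (0.225 to 0.905) in NHP1 and 0.138 (0.00334 to 0.858) in NHP2, from 11 and 1 UMIs in RPE spots.

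Inner retina spots had 2.59-fold (1.96 to 3.47) the SLC1A3 level of photoreceptor spots in NHP1 and 3.71-fold (2.34 to 6.17) in NHP2, at the 92.8th and 95.6th percentiles of all genes tested. With a minimum score of 2.5 the ratio in NHP1 was 1.86 with an interval that included 1 (0.855 to 4.49). Either the inner nuclear or the ganglion cell class held no SLC1A3 UMI there. With equal weight of spots the ratio was 6.48 in NHP2. The ratio of ganglion cell to inner nuclear spots was 0.476 (0.365 to 0.618) and 0.595 (0.424 to 0.831). In the clustered regions of NHP1 it was 0.965 (0.775 to 1.21), and with a minimum score of 2.5 in NHP2 it was 0.523 (0.132 to 4.54), so the step between these layers was not larger than counting error there. A UMI of SLC1A3 was found in 33 of 37 and 10 of 12 inner nuclear spots, 31 of 52 and 8 of 11 ganglion cell spots, and 31 of 100 and 6 of 25 photoreceptor spots. In sclera spots it was found in 12 of 133 and 15 of 170, at the lower median depths of 573 and 624.5 UMIs against 5269 and 9529 in inner nuclear spots. When each spot was thinned to 300 UMIs to level the depth, leaving out the shallower spots, the share was 27.0% (13.8 to 44.1) of inner nuclear spots against 3.77% (1.04 to 9.38) of sclera spots in NHP1. In NHP2 it was 16.7% (2.09 to 48.4) against 3.55% (1.16 to 8.08), and these intervals overlap.

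Neural retina against the outer coats, that is photoreceptor, inner nuclear and ganglion cell spots against RPE, choroid and sclera spots, set the 2 genes apart. SLC1A3 was 3.27-fold (2.28 to 4.83) higher in the neural retina of NHP1, 3.59 against 1.101, and 4.57-fold (2.74 to 8.18) higher in that of NHP2, 3.24 against 0.709. GLUL was 1.32-fold (1.18 to 1.48) higher in NHP1, 17.2 against 13.04, and 1.83-fold (1.56 to 2.16) higher in NHP2, 15.5 against 8.47. In this comparison 11.7% of 4542 genes in NHP1 and 25.1% of 3248 genes in NHP2 were at least 2-fold higher in the neural retina, with a median over all genes of 1.17-fold and 1.34-fold. SLC1A3 stood at percentiles of 97.9 and 96.1, and GLUL at 59.996 and 69.4. The GLUL direction in NHP1 turned with the processing. It was 0.870 (0.731 to 1.04) with a minimum score of 2.5, and 0.954 when spots were weighted equally. In NHP2 the minimum score gave GLUL 1.05 (0.851 to 1.30). For SLC1A3 it gave 1.76 (1.006 to 3.17) in NHP1 and 2.40 (1.246 to 4.92) in NHP2, and equal weight of spots gave 1.78 in NHP2.

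In NHP1, GLUL was higher in sclera than in photoreceptor spots, by 1.95-fold (1.60 to 2.37), whereas the ratio in NHP2 was 1.05 (0.827 to 1.34). Sclera spots held 14.8 per 10000 in NHP1 and 8.85 in NHP2, a ratio of NHP2 to NHP1 of 0.598 (0.472 to 0.755). RNA away from the tissue moved with this difference. Spots off tissue had medians of 8 and 4 UMIs but held 523115 and 76907 UMIs in all, so their summed levels rest mainly on the deeper ones. Those of NHP1 held GLUL at 16.4 (15.3 to 17.6) and those of NHP2 at 11.6 (9.29 to 14.2). GLUL in sclera spots thus did not exceed its level off tissue in either section, and its level in inner nuclear spots did in both. In photoreceptor spots, at 7.59 and 8.41, GLUL did not exceed the off-tissue level either. Its intervals in ganglion cell spots, 17.3 to 20.5 and 13.4 to 16.9, overlapped those off tissue. SLC1A3 off tissue was 2.75 (2.32 to 3.24) and 2.08 (1.19 to 3.38), above its level in sclera spots of NHP1. Its intervals in ganglion cell spots, 2.60 to 3.92 and 2.53 to 4.21, overlapped those off tissue. A GLUL UMI was found in 7.45% (6.68 to 8.27) of the 4284 spots off tissue in NHP1 and in 1.39% (1.05 to 1.80) of the 4027 in NHP2. The part of stray RNA in the values of the outer coats, or of any other layer, was not tested.

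The UMIs of the 2 genes can be set against each other within a class, where depth is shared. For every 100 GLUL UMIs there were 20.9 (18.4 to 23.6) SLC1A3 UMIs in the neural retina of NHP1 and 20.9 (17.7 to 24.7) in that of NHP2. In the outer coats there were 8.44 (5.73 to 12.1) and 8.38 (4.69 to 14.0). The ratio of neural retina to outer coats was 2.47 (1.73 to 3.66) in NHP1 and 2.497 (1.49 to 4.47) in NHP2. Off tissue, the number was 16.8 (14.0 to 20.02) and 18.0 (9.85 to 30.8), 1.99-fold (1.35 to 2.99) and 2.15-fold (1.005 to 4.58) that of the outer coats. The outer coats thus held fewer SLC1A3 UMIs per GLUL UMI than either the neural retina or the spots off tissue in both sections, with the lower bound of the last ratio in NHP2 close to 1.

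**Figure D3:**
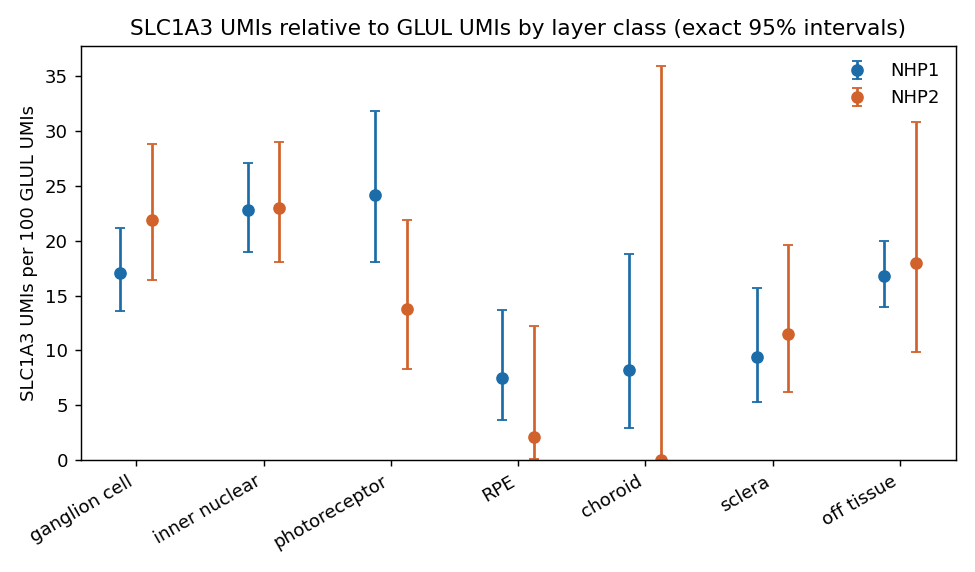
SLC1A3 UMIs per 100 GLUL UMIs (linear axis from 0) in each layer class and off tissue, for NHP1 (blue) and NHP2 (orange), with exact 95% intervals as bars. Inner nuclear spots stand at 22.8 and 23.0, and RPE spots at 7.43 and 2.08.

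GFAP had 46 UMIs in 40 of 534 tissue spots of NHP1 and 12 UMIs in 8 of 470 tissue spots of NHP2, and it did not reach 50 UMIs in any comparison. It lies at chr16:56169389-56180984 of Mmul_10 on the minus strand, with 2 annotated transcripts of 9 and 10 exons, and its identifier is ENSMMUG00000013115. In NHP1 there were 17 UMIs in ganglion cell spots, a level of 0.569 (0.331 to 0.911), 9 in inner nuclear spots, a level of 0.389 (0.178 to 0.739), 5 in photoreceptor spots, 2 in RPE spots, 0 in choroid spots and 1 in sclera spots. In NHP2 there were 2 UMIs in ganglion cell spots, 5 in inner nuclear spots, 3 in photoreceptor spots, 0 in RPE and choroid spots and 1 in sclera spots. Zero counts allow up to 0.516 per 10000 in the choroid spots of NHP1, and up to 0.481 and 1.99 in the RPE and choroid spots of NHP2.

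The GFAP level in inner retina spots was 3.42-fold (1.29 to 11.4) that of photoreceptor spots in NHP1, from 26 and 5 UMIs, and 1.20-fold (0.273 to 7.18) in NHP2, from 7 and 3 UMIs. With the clustered regions the ratio in NHP1 was 1.35 (0.687 to 2.81), from 31 and 13 UMIs. Ganglion cell against inner nuclear spots gave 1.46 (0.616 to 3.72) in NHP1 and 0.336 (0.0320 to 2.05) in NHP2, so which of the 2 layers held more was not detectable at this depth. GFAP off tissue stood at 0.459 (0.294 to 0.683) in NHP1, within the interval of its ganglion cell spots. Sections of other conditions were not analysed here, so these counts have no gliotic sample beside them.

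Between the animals, the inner retina of NHP2 had 0.814 (0.740 to 0.894) of the GLUL level of NHP1, and 0.907 (0.737 to 1.11) of its SLC1A3 level. For GFAP the ratio was 0.405 (0.148 to 0.958), from 7 against 26 UMIs. Its interval included 1 with the clustered regions, at 0.597 (0.261 to 1.2502), with 0.5 in place of 3 UMIs added in the layer score, at 0.428 (0.157 to 1.01), and without spots near a tie, at 0.445 (0.162 to 1.06). Over the 3576 genes with at least 50 UMIs in these spots the median ratio was 1.03, with 1.43% at least 2-fold lower in NHP2 and 1.99% at least 2-fold higher, so neither GLUL nor SLC1A3 reached a 2-fold difference. With a minimum score of 2.5 the GLUL ratio was 0.959 (0.775 to 1.19) and the SLC1A3 ratio 1.47 (0.844 to 2.57). At that score the inner retina of NHP2 rested almost wholly on ganglion cell spots, and that of NHP1 lacked UMIs of either gene in the inner nuclear or the ganglion cell class. Animal, library, vector and the makeup of the spots differ together here and cannot be told apart.

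Other genes known from Müller glia were read from a list of 20, of which 19 are in the reference. This list and those below were chosen with earlier results of these data known, so their shares are descriptive and no test. In NHP1, 13 of the 16 with at least 50 UMIs were at least 2-fold higher in inner retina than in photoreceptor spots, beside 11.6% of all genes. At least 2-fold lower was 1 of them, beside 9.13% of all genes, and the median was 2.52-fold against 0.963-fold over all genes. In NHP2, 9 of 12 were higher and 1 lower, beside 11.3% and 12.1% of all genes, with a median of 2.54-fold against 0.930-fold. Of the list genes, 8 were at least 2-fold higher in both, beside 8.17% of the 2240 genes measured in each section. TF, the iron carrier transferrin, had 3.14-fold (2.92 to 3.39) and 3.07-fold (2.78 to 3.40) the level of photoreceptor spots. WIF1, a secreted inhibitor of Wnt signalling, had 4.02-fold (3.42 to 4.75) and 3.53-fold (2.80 to 4.50). AQP4, the water channel of glial endfeet, had 3.74-fold (2.29 to 6.46) and 2.54-fold (1.49 to 4.56). VIM, the intermediate filament vimentin, had 2.81-fold (2.38 to 3.32) and 2.74-fold (2.09 to 3.64). RGR, an opsin found in Müller glia and RPE, was the exception at 0.311 (0.230 to 0.417) and 0.325 (0.191 to 0.545).

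**Figure D4:**
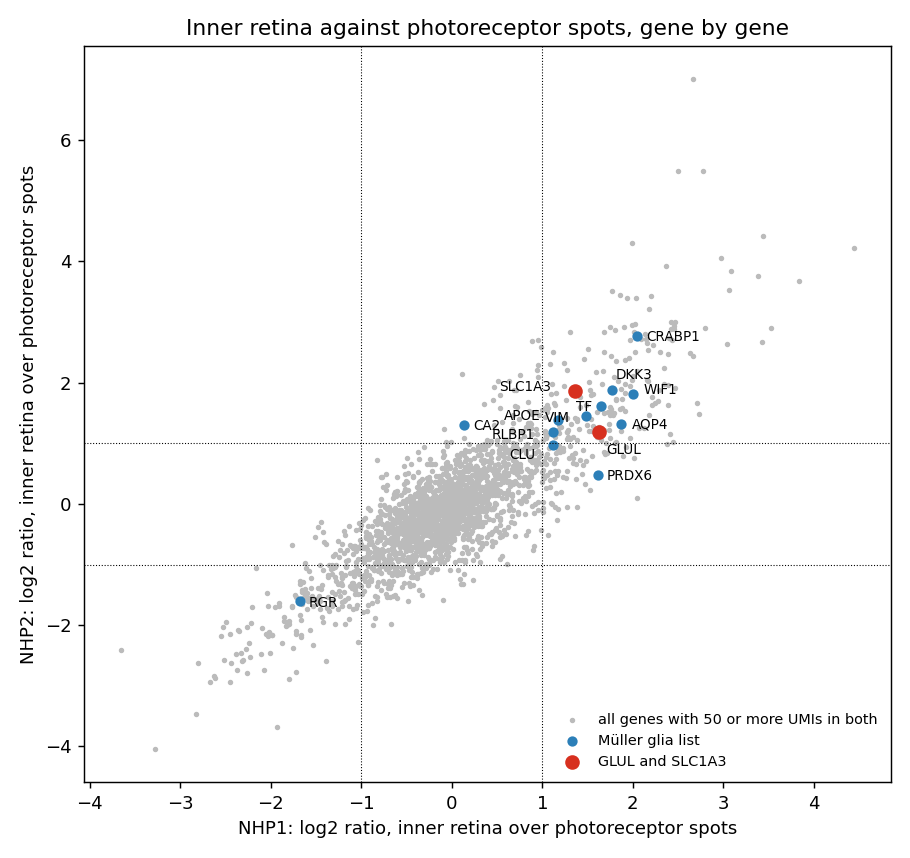
Log2 ratio of inner retina to photoreceptor spots for each of the 2240 genes with at least 50 UMIs in both sections, NHP1 on the horizontal and NHP2 on the vertical axis, with dotted lines at 2-fold. GLUL and SLC1A3 (red) lie beyond 2-fold in both sections, as do 8 of the 12 Müller glia list genes shown (blue). Of all genes shown, 8.17% are at least 2-fold higher in the inner retina in both sections.

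The layer of the highest level differed between these genes. Of 18 list genes with at least 50 tissue UMIs in NHP1, 8 had their highest level in inner nuclear spots, against 23.2% of all such genes, and in NHP2 it was 6 of 15 against 18.1%. TF reached 104 per 10000 in inner nuclear spots of NHP1 and 99.7 in those of NHP2, and WIF1 27.3 and 23.4. AQP4 reached 3.07 and 3.04. RLBP1, which encodes the retinaldehyde carrier CRALBP of Müller glia and RPE, was highest in RPE spots at 37.2 and 37.0, with inner nuclear spots second at 19.7 and 19.6. APOE, a lipid carrier, was highest in choroid spots at 32.1 and 34.4, and CLU, a secreted chaperone, in sclera spots at 49.99 and 114. CRABP1, a retinoic acid binding protein, was highest in ganglion cell spots at 11.8 and 12.1. In the comparison of neural retina with outer coats, 7 of 17 list genes in NHP1 were at least 2-fold higher and 4 at least 2-fold lower, beside 11.7% and 7.66% of all genes. In NHP2 it was 6 and 5 of 14, beside 25.1% and 11.5%.

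Other genes of glutamate handling were read from a list as well. Of 15 listed, 8 had at least 50 UMIs in the inner retina and photoreceptor spots of NHP1. Of these 1 was at least 2-fold higher in the inner retina and 2 were at least 2-fold lower, beside 11.6% and 9.13% of all genes, with a median of 0.613-fold. Of 5 in NHP2, 0 were higher and 2 lower, beside 11.3% and 12.1%. SLC38A3, a glutamine transporter, was 0.471 (0.377 to 0.587) and 0.456 (0.333 to 0.623) of the level in photoreceptor spots, and highest there at 5.73 and 4.98 per 10000. SLC17A7, the vesicular glutamate transporter of photoreceptors and bipolar cells, was 0.549 (0.445 to 0.676) and 0.249 (0.175 to 0.350). GOT1, the cytosolic aspartate aminotransferase, was 1.39-fold (1.12 to 1.73) and 1.52-fold (1.14 to 2.07) higher in the inner retina, and highest in ganglion cell spots at 5.86 and 7.05. GAD1, which makes GABA from glutamate, was the gene at least 2-fold higher in NHP1, but it is also on the inner nuclear marker list, so the layer calls used it. GLUD1, glutamate dehydrogenase, was 0.446 (0.244 to 0.802) in NHP1 and 1.62 (0.624 to 4.97) in NHP2, from 25 UMIs. The glutamate transporter SLC1A2 had 1 UMI in each section, and the cystine and glutamate exchanger SLC7A11 had 0.

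Of 9 astrocyte genes listed, 6 had at least 50 tissue UMIs in each section, and 1 of these in NHP1 and 2 in NHP2 were highest in ganglion cell spots, next to the nerve fibre layer, as were 12.9% and 13.1% of all such genes. PAX2, which marks retinal astrocytes, had 0 UMIs in both sections, and ALDH1L1 had 15 and 3. ALDOC, a glycolytic enzyme common in astrocytes and also found in neurons, was highest in ganglion cell spots at 23.8 and 20.4 per 10000, and S100B at 1.41 in those of NHP2 but in choroid spots at 1.72 in NHP1. GJA1, the gap junction protein connexin 43, was highest in RPE spots at 2.76 and 4.65. CD9, a tetraspanin, was highest in sclera spots at 2.87 and 4.66.

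Of the genes of gliosis other than GFAP, 7 of the 7 with at least 50 tissue UMIs in NHP1 and 5 of 6 in NHP2 were highest in RPE, choroid or sclera spots, beside 40.2% and 44.6% of all such genes. Of 20 listed, 19 are in the reference and 6 had at least 50 UMIs in the comparison of neural retina with outer coats in each section. Of these, 0 were at least 2-fold higher in the neural retina, and S100A6, TIMP1 and MT2A were at least 2-fold lower in both sections, beside 7.66% and 11.5% of all genes. The list median was 0.323-fold and 0.516-fold. S100A6, a calcium-binding protein, stood at 0.0562 (0.0402 to 0.0770) and 0.0561 (0.0350 to 0.0861) of its level in the outer coats. TIMP1, an inhibitor of matrix metalloproteinases, stood at 0.0549 (0.0319 to 0.0896) and 0.0346 (0.0201 to 0.0560), and the metallothionein MT2A at 0.191 (0.149 to 0.243) and 0.283 (0.208 to 0.385). Within the neural retina, 4 list genes had at least 50 UMIs in each section. Of these, VIM and CRYAB were at least 2-fold higher in inner retina than in photoreceptor spots of NHP1, and VIM in NHP2, beside 11.6% and 11.3% of all genes. LCN2 had 13 and 6 tissue UMIs, SERPINA3 33 and 9, and STAT3 19 and 6.

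**Figure D5:**
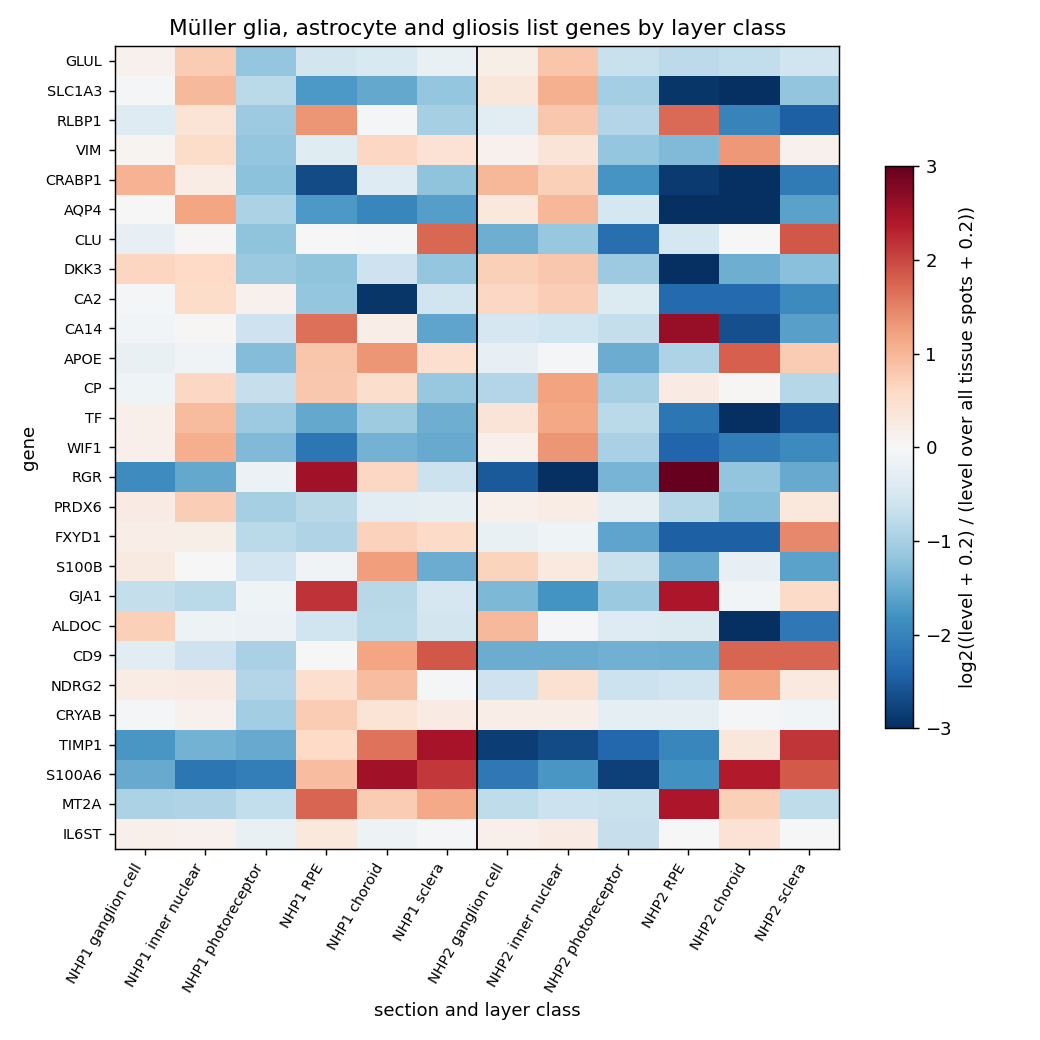
Levels of GLUL, SLC1A3 and the 25 genes of the Müller glia, astrocyte and gliosis lists with at least 50 tissue UMIs in both sections, by layer class of NHP1 (left) and NHP2 (right). Colour is the log2 ratio of the level in the class to that over all tissue spots, each with 0.2 UMIs per 10000 added and shown between -3 and 3, and TF, WIF1 and AQP4 share with GLUL and SLC1A3 the highest value in inner nuclear spots, whereas RGR and GJA1 are highest in RPE spots.

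The genes whose levels over the layers were most like those of the 3 genes were found by Pearson's r of log2(UMIs per 10000 + 1) over the 12 combinations of section and layer class, among 2353 genes with at least 200 UMIs. These classes share libraries and neighbouring spots, so r describes likeness only. For GLUL the closest were FRZB (r = 0.919), ENO1 (0.906), CPLX3 (0.904), RAP1GAP (0.904) and WIF1 (0.902), and SLC1A3 came 13th at 0.867. For SLC1A3 they were RAP1GAP (0.969), WIF1 (0.964), CPLX3 (0.962), SLC4A10 (0.960) and CLSTN3 (0.959), and GLUL came 51st. For GFAP they were PJA2 (0.886), SLITRK2 (0.859), CAMKK1 (0.852), NAP1L2 (0.845) and CLSTN3 (0.841), on 58 GFAP UMIs in all. WIF1, RAP1GAP and CPLX3 thus stood among the closest 5 genes to both GLUL and SLC1A3.

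Without any layer call, Moran's I of the log level between adjacent spots with at least 100 UMIs measured how patchy each gene was. It was 0.0636 for GLUL and 0.217 for SLC1A3 in NHP1, where the median of 5310 genes was 0.0583. There 46.2% of genes had a higher value than GLUL and 5.40% a higher value than SLC1A3. In NHP2 it was 0.159 for GLUL and 0.123 for SLC1A3, against a median of 0.0742 over 3444 genes, with 19.4% and 29.1% of genes higher. GFAP had 0.0127 and 0.0245, below the median in both sections. The genes behind these medians have at least 50 UMIs, and GFAP has 46 and 12, so its values cannot be compared with them. GLUL was the more patchy of the 2 genes in NHP2 and the less patchy in NHP1.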

How the data were processed

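Visium sections of the uninjected areas of NHP1 and NHP2 were used, 1 library each. The files deposited hold UMI counts for each gene in each spot, made by the authors with Space Ranger 2.1.0 against Mmul_10 with transgene sequences added, with no normalization, and a mark for tissue. Their table of spatial statistics per gene (Moran's I and p-values) was not used. Gene symbols were absent for 9855 of 26533 features, of which 564 were named from a table of gene identifiers. No sequence was read from the genome.

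The layer score of a spot was (observed + 3)/(expected + 3) UMIs of a marker list, with the expected number from the section's share of the list and the spot's total. A call needed 100 UMIs in the spot, 3 UMIs of the list and a score of 1.5. Spots within 2.1 spacings were joined into pieces. Levels are summed UMIs per 10000 with exact 95% intervals (Poisson for levels, Clopper-Pearson for shares, conditional binomial for ratios). UMI depth limits precision, a count of 0 allows up to 3 UMIs, and intervals cover counting error only. Percentiles and counts at 2-fold used genes with 50 UMIs in the spots compared, after adding 0.5 UMIs to each sum. The spots of the 2 libraries shared 67 tissue barcodes, which are grid positions and not shared cells. No doublet caller was run. The code of the layer calls was checked on spots redrawn from the summed profile of the class they had been called into. Such spots are not mixed and have no independently known layer, so this check cannot tell whether the calls are right.

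The genes named are GLUL, SLC1A3 and GFAP, genes of 4 glial lists (values given mainly from 50 tissue UMIs in a section, with low or absent ones given as counts), and the 5 genes most like each of the 3. The genes and lists were chosen with earlier results of these data known. Alternatives changed the score, the minimum score and depth, the layer definition (Leiden regions), the denominator, the weight of spots and the expected shares. Python 3.11.15, numpy 2.4.6, scipy 1.17.1, pandas 2.3.3, scanpy 1.11.5 and leidenalg 0.10.2 were used.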

Additional observations from a re-analysis of the deposited data

How the results depend on the processing

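Inner retina against photoreceptor spots kept its direction under every alternative that gave a value. For it, 39 of 49 alternative values lay within the counting interval, as did 43 of 52 for neural retina against outer coats, 43 of 47 for ganglion cell against inner nuclear spots and 24 of 26 between animals. The others are given here, and their cause was not tested. These counts pool GLUL, SLC1A3 and GFAP. For inner retina against photoreceptor spots, every GFAP value lay within its wide intervals, 1.29 to 11.4 in NHP1 and 0.273 to 7.18 in NHP2. Most values outside the interval in that comparison were of GLUL. No inner retina to photoreceptor or ganglion cell to inner nuclear ratio could be had with Leiden regions in NHP2, where no region led with the photoreceptor or ganglion cell list, no ganglion cell to inner nuclear ratio with a minimum score of 2.5 in NHP1, and none for GFAP where a class held 0 UMIs. A minimum score of 2.5 left the inner retina of NHP2 almost wholly to ganglion cell spots. In NHP1 it left the inner nuclear or the ganglion cell class without UMIs of these genes. The inner retina to photoreceptor ratio was then 5.54 (NHP1) and 3.83 (NHP2) for GLUL and 1.86 for SLC1A3 in NHP1. It was 2.11 (NHP1) with Leiden regions, 2.64 and 3.35 with pooled expected shares, and 3.37 in NHP2 with spots weighted equally for GLUL, and 6.48 in NHP2 for SLC1A3 with spots weighted equally. Chosen after seeing the data were giving every spot its highest list (GLUL 2.56 in NHP1) and leaving out spots near a tie (GLUL 2.83 in NHP2).

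For neural retina against outer coats, a minimum score of 2.5 gave GLUL 0.870 (NHP1, turned) and 1.05 (NHP2) and SLC1A3 1.76 and 2.40. Equal weight of spots gave GLUL 0.954 (NHP1, turned) and 1.31 (NHP2), and in NHP2 SLC1A3 1.78 and GFAP 0.559. Leiden regions gave GLUL 2.71 in NHP2. For ganglion cell against inner nuclear spots, Leiden regions gave 1.17 (turned) for GLUL and 0.965 for SLC1A3 in NHP1, and in NHP2 GLUL was 1.12 (turned) with a minimum score of 2.5 and 0.789 with equal weight. Between animals, a minimum score of 2.5 gave 0.959 for GLUL and 1.47 for SLC1A3.

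Of neural retina spots, those with a UMI fell after thinning to 300 UMIs to 33.9% and 34.8% for GLUL, 9.52% and 8.70% for SLC1A3, and 1.06% and 0 for GFAP in NHP1 and NHP2. With at least 2 UMIs they were 66.1% (GLUL), 31.7% (SLC1A3) and 2.12% (GFAP) in NHP1. No paired analysis was possible because each group has 1 section. Depth limits GFAP most, and the layers of NHP2 rest on 11 to 34 spots outside the sclera.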
